A study of Homo sapiens with 30 samples.

Results

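The genes described here are 7 of the 57773 genes counted in the series: ACTRT3, MYNN, RP11-362K14.5, BTBD19, ZNF460, TNK2-AS1 and CCDC85B. They were chosen by their counts in C4-2 cells, which were lower with GSK2879552, a compound that blocks the histone demethylase LSD1, than in the matched DMSO cells, either without or with doxycycline. Their levels in those C4-2 libraries are therefore a description of the choice, and no p-value is given for them there. Of 23 genes called lower in at least one of these inhibitor comparisons (edgeR adjusted p under 0.05), 7 are the genes described here and 16 are others; 4 of the 7 were called lower in both. The libraries from the other experiments played no part in the choice and are tested where replication allows.

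All samples were human prostate cancer cell lines. C4-2 is a castration-resistant derivative of LNCaP, and C4-2-tet-shRB makes a short hairpin RNA against the RB1 gene when doxycycline is added, so the cells without doxycycline carry the same construct. In the GSK2879552 experiment, C4-2-tet-shRB cells in RPMI medium with 5% charcoal-stripped serum (CSS) received DMSO or 10 µM GSK2879552 for 24 hours, without doxycycline or after 3 days of 0.05 µg/ml doxycycline (2 libraries per group). In the DHT experiment, the same line in 8% CSS plus 2% FBS had 0, 3 or 30 days of doxycycline at that dose and then vehicle or 10 nM dihydrotestosterone (DHT, an androgen) for 24 hours (1 library per group). LNCaP cells in 5% CSS received vehicle or 1 µM GSK2879552 for 2 days (1 library each). VCaP cells, labelled as grown in 10% FBS although their library names contain the letters CSS, were transfected with 20 nM control siRNA (siNTC) or RB1 siRNA (siRB) for 2 days (3 libraries each). The labels do not say whether replicate libraries came from separate cultures, so p-values may measure technical spread only, and they do not say whether C4-2-tet-shRB is a single clone.

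The 22 libraries held from 13085157 to 22326960 counts each, except the VCaP libraries, which held 4311455 to 7107036. RB1 was lower in each comparison that depletes it, at a log2 fold change of -3.22 in VCaP and of -2.98 to -2.14 with doxycycline, while KDM1A, the gene of LSD1, differed by 0.02 and -0.02 with the inhibitor in C4-2 (edgeR adjusted p = 0.926 and 0.951). All 10 luminal prostate markers were above 1 CPM (a count scaled to the size of its library) in each library, and ERG, which marks the gene fusion of VCaP, reached 328 CPM in VCaP and stayed under 1 CPM elsewhere. The 3 leukocyte and 3 basal prostate markers stayed under 1 CPM in the C4-2 and LNCaP libraries, and KRT14 (basal) reached 7.73 CPM in VCaP. Some other markers were higher. COL1A1 (stromal) reached 50.8 CPM in the GSK2879552 experiment, VWF (endothelial) 23.0 CPM in LNCaP, and CHGA (neuroendocrine) 150 CPM in VCaP. Of 4 stromal markers 2 stayed under 1 CPM in each experiment, and of 4 neuroendocrine markers 3 did in C4-2 and LNCaP. The libraries labelled GSK2879552 without doxycycline differed from each other more than any other replicate pair (chi-square per gene 7.88, against 1.61 for the closest pair of that experiment), which touches the values of CCDC85B below.

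LSD1 removes methyl groups from lysines of histone H3 and works with the CoREST corepressor, so its inhibition is mostly known for raising the expression of silenced genes. GSK2879552 is an irreversible inhibitor that attacks the flavin cofactor of the enzyme. In prostate cells LSD1 also binds with the androgen receptor, which DHT activates, and RB1 restrains the E2F transcription factors that drive the cell cycle. The 7 genes belong to no common pathway: MYNN and ZNF460 encode zinc finger proteins, MYNN and BTBD19 share the BTB domain through which proteins pair up, ACTRT3 encodes an actin-related protein, CCDC85B a coiled-coil protein that binds catenins and bZIP transcription factors, and RP11-362K14.5 and TNK2-AS1 are antisense RNAs.

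Position linked several of them. ACTRT3, MYNN and RP11-362K14.5 lie side by side on chromosome 3: ACTRT3 on the minus strand, MYNN on the plus strand, and RP11-362K14.5 within MYNN on the opposite strand, next to TERC, the RNA component of telomerase. TNK2-AS1, also on chromosome 3, lies far from them and overlaps TNK2 (a tyrosine kinase known to phosphorylate the androgen receptor) on the opposite strand. BTBD19 is on chromosome 1, CCDC85B on chromosome 11 and ZNF460 on chromosome 19. The library kits kept strand, but the strand setting of the counting is not given in the sources used here, so reads of MYNN and RP11-362K14.5, of TNK2-AS1 and TNK2, of ACTRT3 and its antisense gene RP11-816J6.3, and of ZNF460 and CTC-444N24.6 may not be fully told apart.

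The 250 bases upstream of the start sites of ACTRT3 and MYNN are shown because these neighbours were both lower with the inhibitor, and those of TNK2-AS1 and CCDC85B because they moved in opposite directions with DHT. The sequences are from RefSeq (GRCh38.p14; 6 of the 7 genes matched, RP11-362K14.5 did not), written 5′ to 3′ on the gene's own strand, with capitals marking matches on either strand to the GC box motif GGGCGG, the CCAAT box (those letters) or the E-box motif CACGTG. The window of ACTRT3 is chr3:169769562-169769811, minus strand, MYNN is chr3:169773146-169773395, plus strand, TNK2-AS1 is chr3:195907826-195908075, plus strand, and CCDC85B is chr11:65890423-65890672, plus strand.
ACTRT3: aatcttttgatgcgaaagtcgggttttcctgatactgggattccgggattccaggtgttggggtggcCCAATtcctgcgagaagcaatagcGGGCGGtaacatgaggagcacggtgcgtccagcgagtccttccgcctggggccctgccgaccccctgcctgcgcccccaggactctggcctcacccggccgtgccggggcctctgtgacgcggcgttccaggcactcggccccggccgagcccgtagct
MYNN: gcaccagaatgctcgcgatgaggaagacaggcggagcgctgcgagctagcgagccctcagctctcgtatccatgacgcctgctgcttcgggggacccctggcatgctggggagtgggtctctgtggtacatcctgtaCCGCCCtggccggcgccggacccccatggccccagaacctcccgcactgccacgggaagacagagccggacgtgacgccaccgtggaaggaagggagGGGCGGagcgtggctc
TNK2-AS1: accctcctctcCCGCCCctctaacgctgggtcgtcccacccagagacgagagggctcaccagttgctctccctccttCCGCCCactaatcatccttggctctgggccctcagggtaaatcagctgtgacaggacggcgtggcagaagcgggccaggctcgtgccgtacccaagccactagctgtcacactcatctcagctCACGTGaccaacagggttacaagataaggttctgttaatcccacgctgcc
CCDC85B: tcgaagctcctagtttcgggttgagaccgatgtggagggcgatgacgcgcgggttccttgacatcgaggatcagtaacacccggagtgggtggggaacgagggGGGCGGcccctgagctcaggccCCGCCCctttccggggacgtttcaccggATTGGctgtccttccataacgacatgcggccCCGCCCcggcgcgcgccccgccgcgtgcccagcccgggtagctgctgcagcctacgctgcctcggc
These 4 windows have GC contents of 66.0%, 68%, 60.0% and 68.8%, against a median of 58.0% over all promoter windows. MYNN has a second start site in RefSeq, whose window is not shown, with a GC content of 39.2% and none of these 3 motifs. Each of the 4 windows shown holds at least 1 GC box (1 in ACTRT3, 2 in MYNN, 2 in TNK2-AS1, 3 in CCDC85B), a motif found in 42.6% of 35116 windows of the same length. ACTRT3 and CCDC85B hold 1 CCAAT box each (32% of all windows), and TNK2-AS1 holds 1 E-box (6.34%). The ACTRT3 and MYNN windows point away from each other and are 3334 bases apart. AGAACA, a core motif of androgen response elements, is in 12.4% of all windows and in none of the 8 windows of the 6 matched genes, which says only that these letters are absent there.

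In the GSK2879552 experiment the neighbours ACTRT3, MYNN and RP11-362K14.5 were lower with the inhibitor both without and with doxycycline. ACTRT3 was at 10.6 and 11.3 CPM with DMSO and at 5.89 and 5.82 CPM with GSK2879552 without doxycycline, and at 12.8 and 12.4 CPM against 7.47 and 7.24 CPM with doxycycline. Each inhibitor library was below each DMSO library, and the log2 differences were -0.90 ± 0.13 (SE, n = 2 per group, as throughout this experiment) and -0.77 ± 0.12.

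MYNN, a BTB zinc finger protein, had the highest counts of the 3 neighbours. It was at 58.3 and 56.9 CPM with DMSO and at 41.2 and 36.8 CPM with GSK2879552, and after doxycycline at 67.0 and 71.5 CPM against 45.0 and 44.7 CPM. Its differences, -0.56 ± 0.08 and -0.63 ± 0.08 on the log2 scale, were smaller than those of ACTRT3 and again without overlap of the libraries. Its antisense RNA RP11-362K14.5 was at 5.03 and 5.53 CPM with DMSO and at 2.99 and 2.69 CPM with GSK2879552, and after doxycycline at 6.55 and 7.76 CPM against 4.40 and 3.93 CPM. The log2 differences were -0.89 ± 0.19 and -0.78 ± 0.16.

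**Figure D1:**
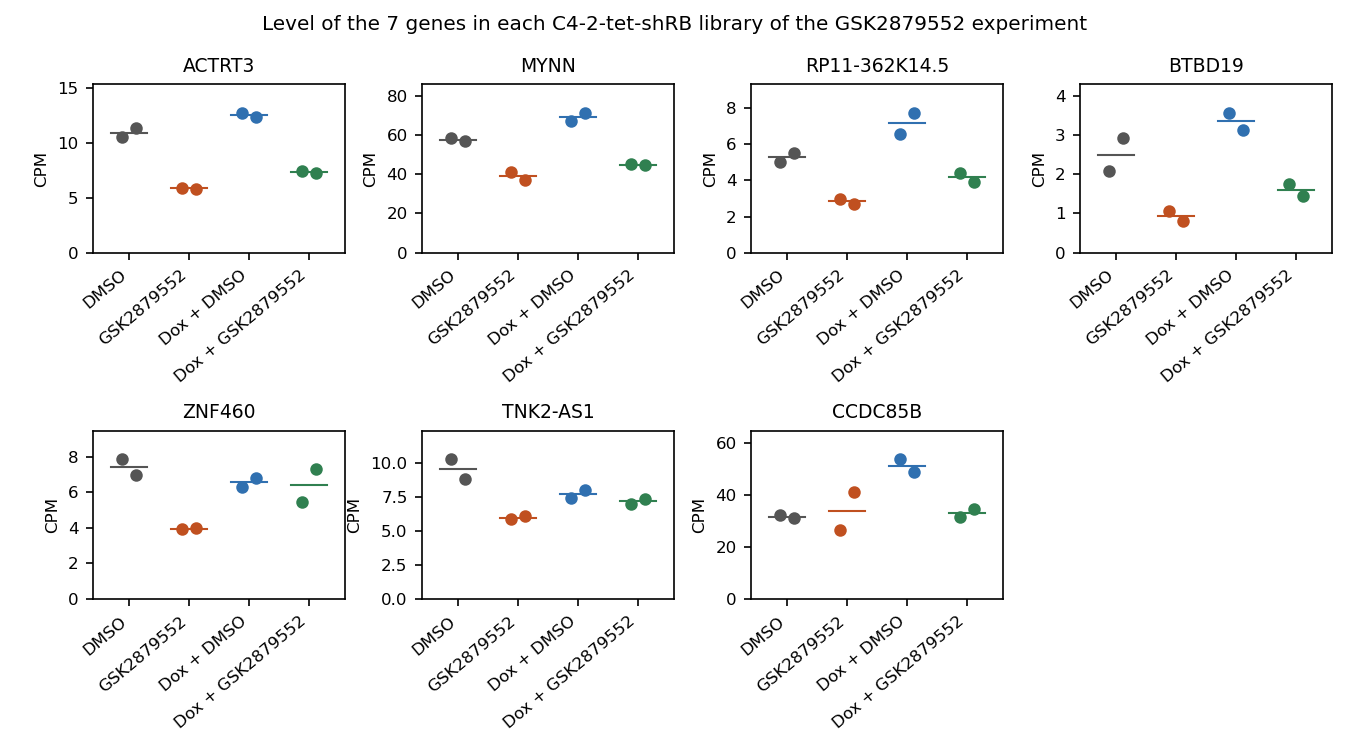
CPM (y axes, from 0) of the 7 genes in each C4-2-tet-shRB library of the GSK2879552 experiment; each point is 1 library and each line the mean of 2. ACTRT3, MYNN, RP11-362K14.5 and BTBD19 are lower with GSK2879552 in both backgrounds, ZNF460 and TNK2-AS1 mainly without doxycycline, and CCDC85B only in the doxycycline pair, where DMSO was at 53.9 and 48.8 CPM.

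BTBD19, a BTB domain gene of low counts, had the largest log2 differences of the 7. It was at 2.07 and 2.92 CPM with DMSO and at 1.06 and 0.813 CPM with GSK2879552, and after doxycycline at 3.57 and 3.12 CPM against 1.74 and 1.44 CPM. These gave -1.39 ± 0.30 and -1.06 ± 0.24 on the log2 scale, from counts of 13 to 73 per library.

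ZNF460 and TNK2-AS1 were lower mainly without doxycycline. ZNF460, a zinc finger gene, was at 7.86 and 6.99 CPM with DMSO and at 3.91 and 4.0 CPM with GSK2879552 (log2 difference -0.91 ± 0.18). After doxycycline its libraries overlapped, at 6.3 and 6.82 CPM with DMSO and 5.48 and 7.31 CPM with the inhibitor (-0.05 ± 0.16). TNK2-AS1 was at 10.3 and 8.83 CPM with DMSO and at 5.84 and 6.13 CPM with GSK2879552 (-0.67 ± 0.14). With doxycycline it was at 7.43 and 8.03 CPM against 6.96 and 7.37 CPM, a small gap without overlap (-0.11 ± 0.14).

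CCDC85B had the opposite pattern. With doxycycline it was at 53.9 and 48.8 CPM with DMSO and at 31.7 and 34.7 CPM with GSK2879552, a log2 difference of -0.63 ± 0.14. Without doxycycline the DMSO libraries were at 32.2 and 31.3 CPM and the inhibitor libraries lay on either side of them, at 26.6 and 41.3 CPM (0.08 ± 0.14). That difference was -0.26 when replicate 2 of the inhibitor group was left out and 0.39 when replicate 1 was.

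In the libraries that chose them, 6 of the 7 genes were called lower without doxycycline and 5 with it (edgeR adjusted p under 0.05). Of the 18423 genes tested, 0.0597% and 0.0923% were called lower. Far more genes were called higher than lower, 114 against 11 without doxycycline and 229 against 17 with it. The median log2 difference of the 7 genes was -0.89 without and -0.63 with doxycycline, against 0.00 over all genes in each. These counts and medians follow from the choice of the genes, so they describe the choice and are no test of it. The count of 6 was 3 in DESeq2 and ranged from 1 to 7 when single libraries were left out, lowest without DMSO replicate 1, and the count of 5 was 2 in DESeq2 and ranged from 2 to 5, lowest without replicate 2 of either doxycycline group or replicate 1 of the doxycycline and inhibitor group.

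The genes around the 7, which the rule did not use, were tested with the inhibitor. Of 22 RefSeq neighbours (up to 3 on each side) found in the tables, 16 had enough counts to test, and 0 were called in either comparison by edgeR or DESeq2, against 0.678% and 1.34% of all genes called in either direction. At an unadjusted p under 0.05 there were 2 without and 5 with doxycycline. In the locus of ACTRT3 and MYNN, TERC was at 1.10 and 1.91 CPM with DMSO and at 0.644 and 0.500 CPM with GSK2879552. The log2 difference of TERC was -1.37 ± 0.41 (edgeR adjusted p = 0.156), and -1.0 ± 0.33 with doxycycline (edgeR adjusted p = 0.194). TERC had only 8 to 51 counts per library here, against 1745 to 2205 in the DHT experiment on the same line. Without the filter on low counts TERC passed the test in both (edgeR adjusted p = 0.0240 and 0.0438). With doxycycline TERC also passed without either library given GSK2879552 alone, at a log2 difference of -1.0 each time. Those libraries are not in that comparison and enter it only through the spread shared by all groups. LRRC34, on the other side of MYNN, differed by -0.51 ± 0.40 and -0.82 ± 0.36 (edgeR adjusted p = 0.645 and 0.403), and LRRC31 beyond it by -0.38 ± 0.19 and -0.34 ± 0.15 (edgeR adjusted p = 0.451 and 0.418).

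RP11-816J6.3, the antisense gene of ACTRT3, went from 5.03 and 4.70 CPM to 3.40 and 3.19 CPM without doxycycline and from 5.08 and 6.11 CPM to 4.04 and 4.06 CPM with it. It did not pass the test (log2 difference -0.55 ± 0.18 and -0.47 ± 0.17, edgeR adjusted p = 0.219 and 0.261). Thus each of the genes of this locus with enough counts had a negative log2 difference in both comparisons.

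**Figure D2:**
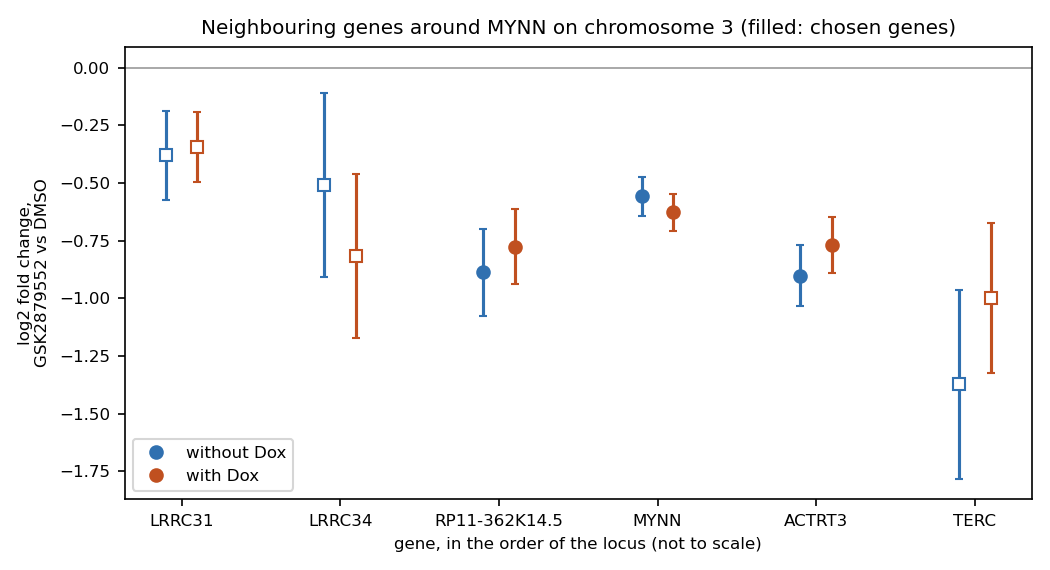
Log2 fold change of GSK2879552 against DMSO (y axis; bars are SE, n = 2 libraries per group) for the genes around MYNN, in their order on the chromosome. The chosen genes (filled circles) are below 0 by the choice. Their neighbours (open squares) are below 0 too, and TERC and LRRC34 have the widest bars.

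At the other loci most tested neighbours also had a negative log2 difference in each comparison, and the rest a positive one. None passed the test. TNK2, which TNK2-AS1 overlaps, was at 304 and 280 CPM with DMSO and 246 and 298 CPM with GSK2879552 without doxycycline (log2 difference -0.11 ± 0.08, edgeR adjusted p = 0.619) and differed by -0.07 ± 0.08 with it (adjusted p = 0.829). Around CCDC85B with doxycycline, FIBP differed by -0.15 ± 0.08, C11orf68 by -0.10 ± 0.12 and DRAP1 by -0.13 ± 0.08, and EFEMP2, an extracellular matrix protein gene, by 0.44 ± 0.14 (edgeR adjusted p = 0.551, 0.826, 0.629 and 0.189). Without doxycycline all of these were negative: EFEMP2 at -0.21 ± 0.14, FIBP at -0.12 ± 0.08, C11orf68 at -0.18 ± 0.12 and DRAP1 at -0.09 ± 0.09. EFEMP2 had the lowest adjusted p of the neighbours with doxycycline. It passed there without either library given GSK2879552 alone, at log2 differences of 0.44 and 0.43. Those libraries are not in that comparison and enter it only through the shared spread. PLK3, a polo-like kinase gene near BTBD19, differed by -0.42 ± 0.15 and -0.40 ± 0.14 (edgeR adjusted p = 0.270 and 0.241). On the same side of BTBD19, BEST4 differed by 0.53 ± 0.33 and 0.32 ± 0.30, and TCTEX1D4 by 0.09 ± 0.30 and -0.33 ± 0.27 (edgeR adjusted p = 0.549, 0.784, 0.932 and 0.741).

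LNCaP cells given 1 µM GSK2879552 for 2 days offer values from libraries that did not choose the genes, at another dose and time. With 1 library each there is no test, and the intervals (95%, exact Clopper-Pearson on the 2 counts) cover counting error only. ACTRT3 had 47 counts with vehicle and 24 with the inhibitor, a scaled ratio of 0.538 (0.315 to 0.898). MYNN went from 227 to 144 counts, a ratio of 0.668 (0.539 to 0.827), and CCDC85B from 859 to 537, a ratio of 0.659 (0.590 to 0.735). These 3 were lower beyond counting error.

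ZNF460 went the other way, from 1251 counts (90.1 CPM) to 2227 (169 CPM), a ratio of 1.88 (1.75 to 2.01). The other 3 had too few counts to place: TNK2-AS1 had 24 and 26 counts (1.14, 0.630 to 2.08), RP11-362K14.5 had 6 and 8 (1.40, 0.427 to 4.91), and BTBD19 had 7 and 2 (0.301, 0.0305 to 1.58). Among genes with at least 20 counts, 25.2% had an interval wholly below 1 and 23.3% wholly above 1, while of the 5 chosen genes with that many counts 3 were below and 1 above. Among the 11955 genes with at least 100 counts, 7.65% had a lower ratio than MYNN and 6.98% a lower ratio than CCDC85B, and 98.0% had a lower ratio than ZNF460. None of the 3 passed a 2-fold difference, which 1.43% of those genes passed downward and 1.54% upward.

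Neighbours in LNCaP did not share one direction. TERC had a ratio of 1.26 (1.19 to 1.33) in LNCaP, from 2085 to 2490 counts, and LRRC31 had 0.365 (0.201 to 0.634). In C4-2 without doxycycline TERC was at -1.37, which was not called (edgeR adjusted p = 0.156). That value came from 16 and 30 counts with DMSO and 14 and 8 with GSK2879552. The difference of TERC between the lines was not tested. ZNF805 and ZNF304, zinc finger genes near ZNF460, had ratios of 1.55 (1.29 to 1.87) and 1.40 (1.21 to 1.63), and ZNF543 between them 0.968 (0.818 to 1.15). C11orf68 and DRAP1 beside CCDC85B had ratios of 0.598 (0.530 to 0.673) and 0.743 (0.670 to 0.823). TNK2 had 0.577 (0.528 to 0.630) while its antisense RNA did not move beyond counting error. KLK3, the prostate-specific antigen gene, had a ratio of 0.479 (0.461 to 0.499) in these LNCaP libraries and log2 differences of 0.11 and 0.17 with the inhibitor in C4-2 (edgeR adjusted p = 0.405 and 0.159).

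**Figure D3:**
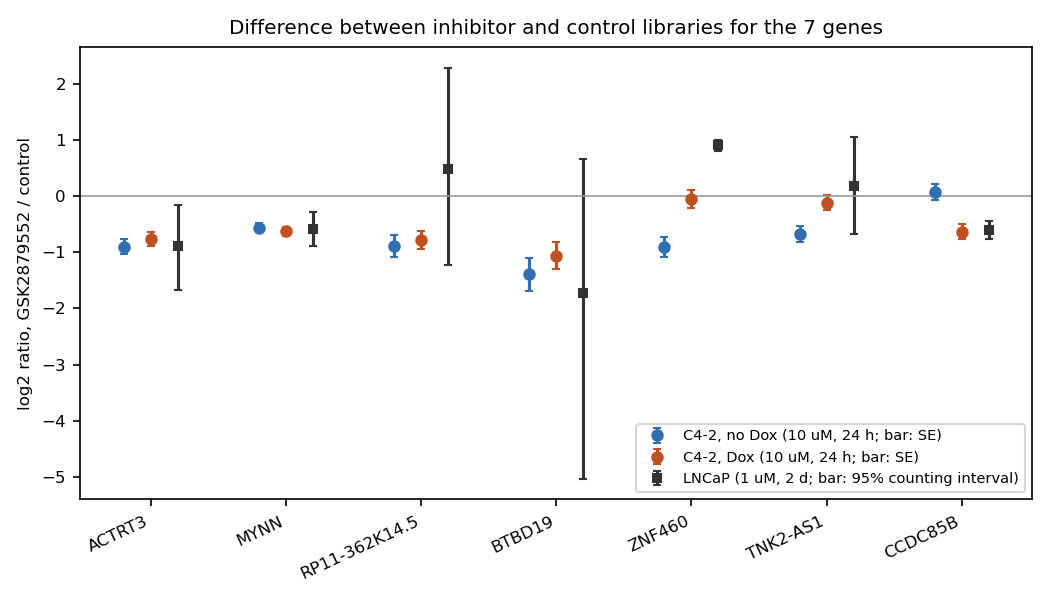
Log2 ratio of GSK2879552 to control (y axis) for the 7 genes in C4-2-tet-shRB cells without and with doxycycline (circles, bars are SE, n = 2 per group, 10 µM for 24 hours) and in LNCaP (squares, bars are 95% counting intervals, 1 library each, 1 µM for 2 days). ACTRT3 and MYNN lie below 0 in each, and ZNF460 lies above 0 in LNCaP at a ratio of 1.88.

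With doxycycline, which lowers RB1, most of the 7 genes were higher in the GSK2879552 experiment. These are the libraries that chose the genes, so the values are a description. With DMSO, 5 of the 7 were higher with doxycycline without overlap of the libraries and 2 lower (28.2% and 28.7% of all genes were). CCDC85B had the largest difference, from 32.2 and 31.3 CPM to 53.9 and 48.8 CPM (log2 difference 0.69 ± 0.14), followed by RP11-362K14.5 (0.44 ± 0.16), BTBD19 (0.41 ± 0.23), MYNN (0.27 ± 0.08) and ACTRT3 (0.20 ± 0.12). ZNF460 (-0.17 ± 0.16) and TNK2-AS1 (-0.30 ± 0.14) were lower. With GSK2879552, 6 of the 7 were higher with doxycycline without overlap (24.8% of all genes were), ZNF460 and TNK2-AS1 now among them, at 0.68 ± 0.18 and 0.26 ± 0.15, and CCDC85B was at -0.02 ± 0.14. The CCDC85B libraries with both agents, 31.7 and 34.7 CPM, thus lay near the 32.2 and 31.3 CPM of those with neither.

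The DHT experiment gave other libraries of the same line with doxycycline, in another medium and from another library kit. There, 0 of the 7 genes were called after 3 days of doxycycline (edgeR; 0.468% of 17300 genes were; 0 had an unadjusted p under 0.05, and DESeq2 called 0). CCDC85B was at 44.3 CPM without and 42.6 CPM after 3 days of doxycycline with vehicle, and at 29.2 and 25.2 CPM with DHT. The log2 difference was -0.12 ± 0.09 (edgeR adjusted p = 0.720), beside 0.69 in the DMSO libraries of the GSK2879552 experiment at the same dose and days. The difference between the experiments was not tested. RP11-362K14.5 had 5 counts without and 22 after 3 days of doxycycline with vehicle, and 7 and 6 with DHT, too few for a call. Its log2 difference was 1.04 ± 0.58 (edgeR adjusted p = 0.588). The gene passed the count filter only through its vehicle libraries at 3 and 30 days of doxycycline, where it was highest.

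After 30 days of doxycycline TNK2-AS1 and CCDC85B fell, 2 of the 7 genes, when 4.03% of all genes were called and 1.52% called lower. TNK2-AS1 went from 2.88 to 1.28 CPM with vehicle and from 5.68 to 3.54 CPM with DHT, a log2 fold change of -0.86 ± 0.24 (edgeR adjusted p = 0.0400). CCDC85B went from 44.3 to 35.2 CPM with vehicle and from 29.2 to 24.0 CPM with DHT (-0.31 ± 0.09, edgeR adjusted p = 0.0406). Both calls were near the threshold: DESeq2 called neither, and the TNK2-AS1 call was lost without any of the 4 libraries at 0 or 30 days (edgeR adjusted p 0.0682 to 0.200), that of CCDC85B without 3 of them (edgeR adjusted p 0.0897 to 0.466). The exception for CCDC85B was the vehicle library at 0 days (adjusted p = 0.0305). MYNN was at 26.2 and 31.0 CPM with vehicle at 0 and 30 days (0.18 ± 0.09, edgeR adjusted p = 0.361), and ZNF460 at 77.6 and 80.5 CPM (0.06 ± 0.07, adjusted p = 0.770).

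In VCaP cells RB1 siRNA called 0 of the 3 genes with enough counts to test, against 5.62% of 14066 genes (edgeR; 0 had an unadjusted p under 0.05, and DESeq2 called 0). CCDC85B was at 120, 121 and 110 CPM with control siRNA and at 122, 114 and 102 CPM with RB1 siRNA (log2 difference -0.05 ± 0.05, edgeR adjusted p = 0.717). MYNN was at 15.3, 16.3 and 15.5 CPM and at 15.9, 15.4 and 19.3 CPM (0.10 ± 0.13, adjusted p = 0.758), and ZNF460 at 2.74, 3.95 and 2.21 CPM and at 3.66, 2.82 and 3.38 CPM (0.16 ± 0.29, adjusted p = 0.845). The libraries of the groups overlapped for each, and the sign of all 3 differences turned when single libraries were left out. BTBD19 had 0 counts in all 6 libraries, which allows up to 0.422 to 0.697 CPM, and RP11-362K14.5 had 0 counts in 4 of them. ACTRT3 had 1 to 5 counts and TNK2-AS1 5 to 14 per library.

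DHT moved TNK2-AS1 and CCDC85B in opposite directions. TNK2-AS1 rose at each doxycycline time, from 2.88 to 5.68 CPM at 0 days, from 2.07 to 4.87 CPM at 3 days and from 1.28 to 3.54 CPM at 30 days, so that each DHT library was above each vehicle library. Its log2 fold change was 1.19 ± 0.20 (edgeR adjusted p = 1.08e-05, 3 libraries per arm, 1 at each doxycycline time). The single ratios were 1.97 (1.35 to 2.90), 2.36 (1.56 to 3.62) and 2.78 (1.65 to 4.81). With 1 library per group, the tests of the DHT experiment take their spread from unequal DHT differences between doxycycline times, not from replicate cultures. CCDC85B fell from 44.3 to 29.2, from 42.6 to 25.2 and from 35.2 to 24.0 CPM, also without overlap. Its log2 fold change was -0.64 ± 0.07 (edgeR adjusted p = 2.45e-08), with single ratios of 0.660 (0.582 to 0.747), 0.592 (0.521 to 0.673) and 0.682 (0.595 to 0.779). Both calls held in DESeq2 and when each library was left out.

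**Figure D4:**
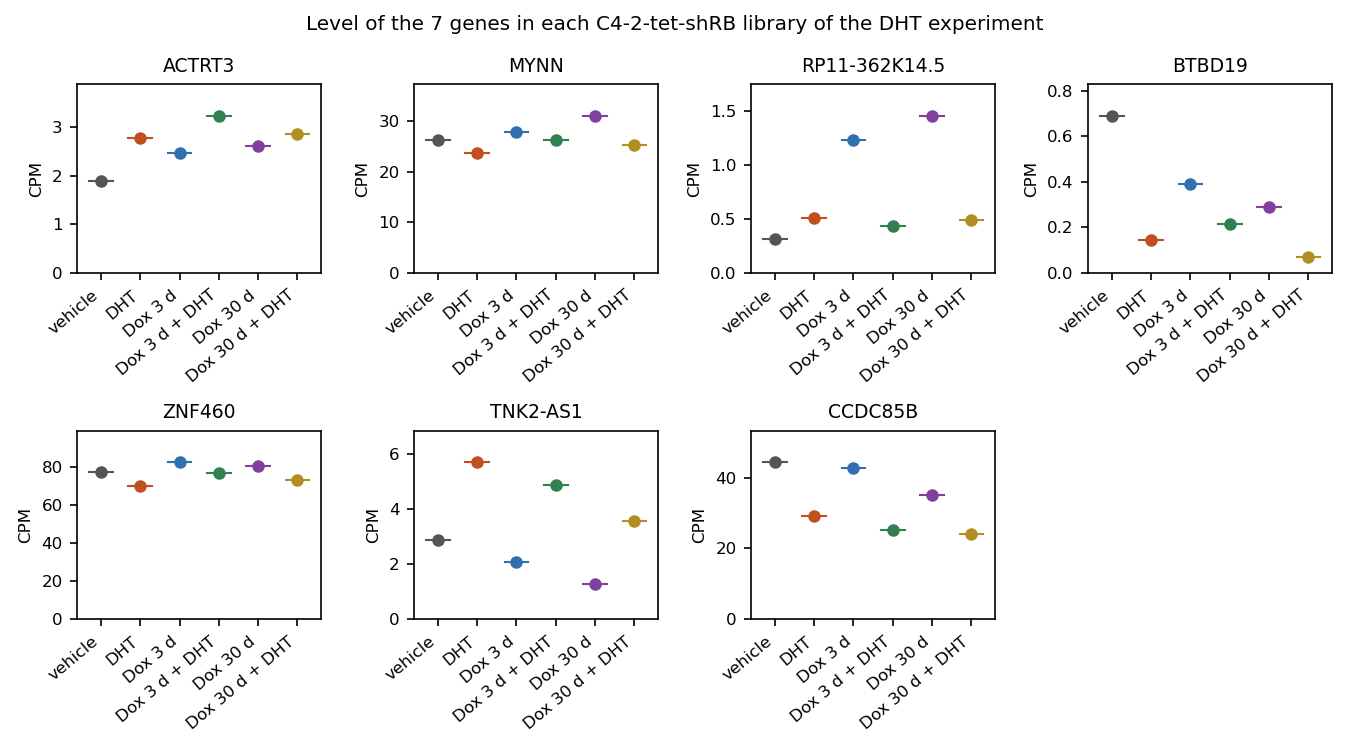
CPM (y axes, from 0) of the 7 genes in each of the 6 libraries of the DHT experiment; each point is 1 library. TNK2-AS1 is higher and CCDC85B lower in the DHT library than in the vehicle library at each doxycycline time, while ZNF460 stays between 70.3 and 82.4 CPM.

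The count with DHT, 3 of 7 called, is to be read against a call rate of 47.1% over all genes (24.3% higher and 22.8% lower). The third call was BTBD19, with 11, 7 and 5 counts with vehicle and 2, 3 and 1 with DHT (log2 fold change -1.61 ± 0.67, edgeR adjusted p = 0.0490). It was lost in DESeq2 (adjusted p = 0.276) and in each leave-one-out fit that could still test the gene. BTBD19 passed the count filter only through the vehicle library at 0 days, where it was highest. The call is thus conditioned on a high vehicle library and is read as a description. MYNN (-0.18 ± 0.08), RP11-362K14.5 (-1.04 ± 0.44), ZNF460 (-0.13 ± 0.06) and ACTRT3 (0.35 ± 0.21) were not called (edgeR adjusted p = 0.0585, 0.0554, 0.0758 and 0.184). RP11-362K14.5 had 22 and 25 counts with vehicle after 3 and 30 days of doxycycline and 6 and 7 with DHT, but 5 and 7 without doxycycline. It passed the count filter only through the libraries with 22 and 25 counts. Its differences with DHT and with doxycycline thus depend on the libraries where it was high.

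Neighbours were tested with DHT as well: of 12 with enough counts 2 rose and 3 fell by edgeR, a share below the 47.1% of all genes called, and DESeq2 called 3 of these 5. TNK2 rose with its antisense RNA, by 0.42 ± 0.06 on the log2 scale (edgeR adjusted p = 2.27e-06), and its libraries stood at 45.6 to 52.6 CPM with vehicle and 61.0 to 69.6 CPM with DHT. TERC rose by 0.19 ± 0.06 (adjusted p by edgeR 0.00852), while LRRC31 fell by 2.54 ± 0.24 (6.75e-10), PLK3 by 0.75 ± 0.17 (0.000551) and ZNF543 by 0.27 ± 0.10 (0.0270). DESeq2 called neither TERC nor ZNF543 (adjusted p = 0.0506 and 0.233). The edgeR call of TERC was lost without either library at 0 days (adjusted p = 0.0800 and 0.0677), and that of ZNF543 without any of the 4 libraries with doxycycline (edgeR adjusted p 0.170 to 0.222). Around CCDC85B none was called: FIBP was at -0.03 ± 0.06, C11orf68 at -0.12 ± 0.09 and DRAP1 at 0.12 ± 0.06.

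**Figure D5:**
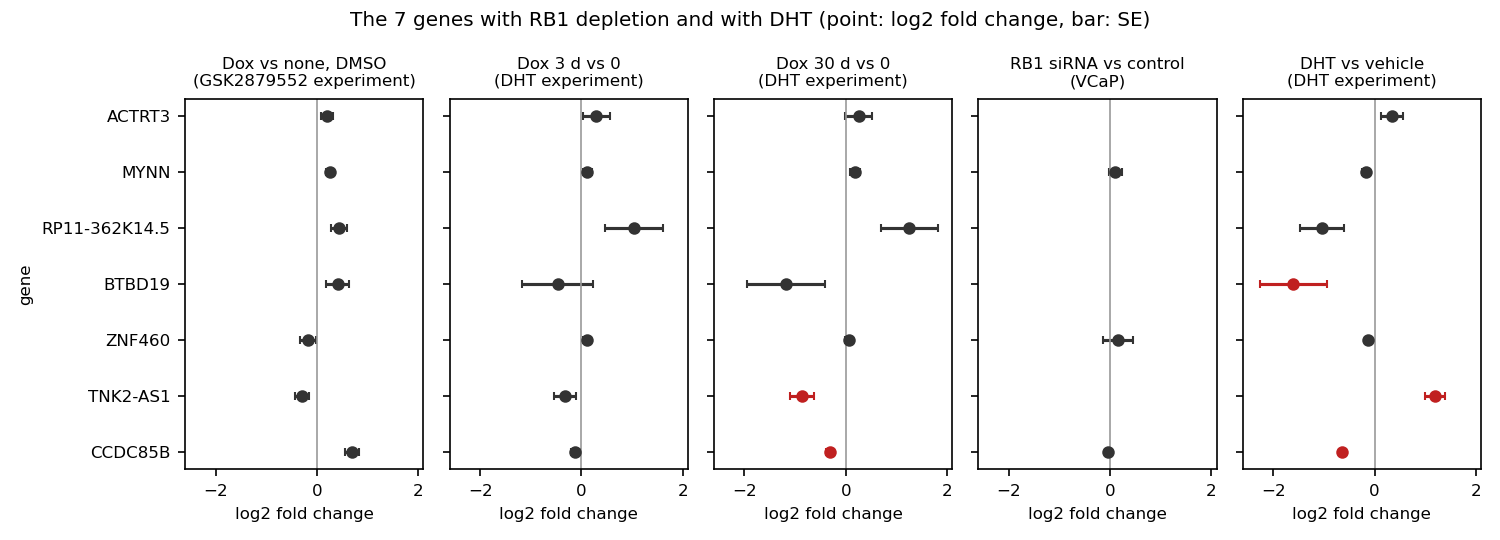
Log2 fold change (x axes; bars are SE) of the 7 genes with doxycycline in the 2 C4-2 experiments, with RB1 siRNA in VCaP (only the 3 genes with enough counts) and with DHT; red points passed edgeR's adjusted p under 0.05, and the first panel was not tested. CCDC85B is at 0.69 in the first panel and at -0.12 in the second, and TNK2-AS1 is at -0.86 after 30 days of doxycycline and at 1.19 with DHT. The BTBD19 point with DHT is a description, since the gene passed the count filter only through the vehicle library at 0 days.

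The level of some of the genes differed widely between experiments on the same line. ZNF460 was at 77.6 CPM in the untreated library of the DHT experiment (total RNA kit) and at 7.43 CPM on average in the untreated libraries of the GSK2879552 experiment (mRNA kit), a ratio of 10.4 that exceeded that of 99.6% of 16177 genes. RP11-362K14.5 had the lowest ratio of the 7, 0.0593, which only 0.457% of genes were below, and ACTRT3 had 0.172. The median ratio over all genes was 0.851. Kit, medium and experiment cannot be told apart here, so levels are compared only within an experiment.

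Relatives of the 7 genes were tested with the inhibitor, where 0.678% and 1.34% of all genes were called without and with doxycycline, so that counts of 0 in lists of this size do not set them apart. Of 46 other BTB zinc finger genes tested, 0 were called by edgeR or DESeq2 without or with doxycycline (6 and 10 had an unadjusted p under 0.05), and their median log2 differences were -0.09 and 0.05, against 0.00 over all genes. These counts of 0 did not hold in every fit with 1 library left out. The count without doxycycline was highest without GSK2879552 replicate 2, and that with doxycycline without GSK2879552 replicate 1. Of 32 zinc finger genes of the cluster around ZNF460, 0 were called by either tool (2 and 2 had an unadjusted p under 0.05). None was called among 11 actin-related genes, 10 other BTBD genes or 5 relatives and catenin partners of CCDC85B, by either tool (0 and 0, 2 and 2, and 0 and 0 had an unadjusted p under 0.05).

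Several bZIP factors, a class that CCDC85B binds, were called. Of 16 tested, 1 was called higher without doxycycline and 4 with it, and 0 lower in either, against 0.619% and 1.24% of all genes called higher. ATF3, a stress-induced factor, rose by 0.48 ± 0.09 without doxycycline (edgeR adjusted p = 0.0109), a call lost without either DMSO library (edgeR adjusted p = 0.261 and 0.109). FOS rose by 1.11 ± 0.15 and ATF2 by 0.68 ± 0.09 with it (edgeR adjusted p = 0.000423 for both). The median of the list was 0.08 without and 0.02 with doxycycline. Of 18 genes of the LSD1-CoREST complex and its partners, 0 were called without doxycycline by edgeR or DESeq2 (2 at an unadjusted p under 0.05) and 1 with it, ZNF217, a zinc finger corepressor (0.30 ± 0.07, edgeR adjusted p = 0.0294). The ZNF217 call was lost with a replicate block (edgeR adjusted p = 0.0901) and without either DMSO library, either doxycycline and DMSO library or either doxycycline and inhibitor library (edgeR adjusted p 0.0779 to 0.447).

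With DHT, when 24.3% of all genes were called higher and 22.8% lower, 2 of 5 tested relatives and catenin partners of CCDC85B rose and 2 fell. CCDC85A fell by 1.33 ± 0.11 on the log2 scale and PKP4 (a catenin of cell junctions) by 0.82 ± 0.06, while CTNND1, p120 catenin, rose by 0.50 ± 0.05 and CCDC85C by 0.15 ± 0.06 (edgeR adjusted p = 1.18e-10, 3.52e-12, 6.96e-09 and 0.0305). The CCDC85C call was lost in DESeq2 (adjusted p = 0.121), without a count filter (edgeR adjusted p = 0.0636) and without any of the 4 libraries at 0 or 30 days (edgeR adjusted p 0.0768 to 0.168). Of 44 other BTB zinc finger genes 11 rose and 9 fell, a share called near the 47.1% over all genes. Of 30 zinc finger genes near ZNF460 3 rose and 7 fell, a smaller share. Of 16 bZIP factors 10 rose and 4 fell, a larger share.

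The genes whose levels ran most like each of the 7 were found by the root-mean-square (RMS) difference in log2 CPM, centred within each experiment, over all 22 libraries and 11569 candidate genes. CCDC85B had the closest companions, SAPCD2 and PITX1, each at an RMS difference of 0.137, against its own RMS spread of 0.286. MYNN ran nearest to TTLL4 (0.151) and CDC25A (0.160), with an own spread of 0.230. ZNF460 was nearest to DPY19L4 and WRN (0.203 each, own spread 0.290), ACTRT3 to REL (0.268) and PLEKHG2 (0.287, own spread 0.399), and TNK2-AS1 to CLU (0.285) and MVP (0.289, own spread 0.455). BTBD19 (CENPE at 0.379, CCNA2 at 0.384, own spread 0.557) and RP11-362K14.5 (GSC at 0.441, TMEM154 at 0.452, own spread 0.569) had larger RMS differences from their nearest genes and larger spreads of their own. The libraries share cell line and treatments within an experiment, so these values describe likeness only.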

How the data were processed

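RNA-seq gene counts in 4 tables were used as the authors deposited them: raw counts per gene from the hg19/GRCh37 genome (FastQC 0.11.9, STAR 2.7.2 and featureCounts 1.6.4, per the submitters' processing notes). The 30 columns were 22 libraries in 14 groups: columns of the DHT and LNCaP experiments are lanes of the same libraries (same library name and index; chi-square per gene 0.983 to 1.01) and were summed. Differences were tested in edgeR 4.0.16 (R 4.3.3) by the quasi-likelihood test after TMM scaling and filterByExpr, fitted on each whole table with Benjamini-Hochberg adjustment at 0.05. The GSK2879552 table was fitted on its 4 groups, the VCaP table on 2, and the DHT table on doxycycline time plus DHT, with 2 residual degrees of freedom. The script was tested on simulated counts. CPM uses TMM-scaled totals. With 1 library per group, ratios of scaled counts have 95% exact intervals. The files give no gene lengths, so levels are not compared between genes.

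The 7 genes and all lists were chosen with earlier results of these data known. The text names the 7 genes, RB1, KDM1A and KLK3, up to 3 RefSeq neighbours per side that could be tested (those not named are in the counts), up to 2 called genes per list and direction, and the 2 genes most alike each of the 7; RP11-816J6.3 and CTC-444N24.6 were added after their values were seen. Alternatives were DESeq2 1.42.0, RLE scaling, no filter, a replicate block and leaving out each library.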

Additional observations from a re-analysis of the deposited data

Results flagged for a closer look

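ZNF460 differed in direction between cell lines with GSK2879552: the LNCaP ratio was 1.88 (1 µM for 2 days, against 10 µM for 24 hours in C4-2), and each C4-2 inhibitor library without doxycycline was below each DMSO library. The difference was not tested, and the C4-2 libraries chose the gene.

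The doxycycline difference of ZNF460 was -0.17 with DMSO and 0.68 with GSK2879552 on the log2 scale, and that of TNK2-AS1 was -0.30 and 0.26, in each case with all libraries of one arm moving one way and all of the other the opposite way. Neither difference between arms was tested, since these libraries chose the genes.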

How the results depend on the processing

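No value of the 7 genes changed direction under DESeq2, RLE scaling, no count filter or a replicate block where it had been called. Counts of called genes moved more. With DESeq2 they were 341 in place of 790 (RB1 siRNA), 30 in place of 81 (3 days of doxycycline), 161 in place of 697 (30 days) and 5323 in place of 8149 (DHT). Of the 7 genes DESeq2 called 3 in place of 6 and 2 in place of 5 with the inhibitor without and with doxycycline, and 0 in place of 2 after 30 days. The counts of the 7 genes with the inhibitor describe their choice and are no test. Without a filter 330 and 406 genes were called with the inhibitor (125 and 246 with it), 222 after 3 days, and 1 of the 7 genes after 30 days. In LNCaP a minimum of 20 counts put 2.93% of genes past 2-fold lower. Replicate numbers did not pair the samples (correlations of same-numbered deviations -0.125 to 0.0353 and 0.0103 to 0.0284). A replicate block called 161 genes with the inhibitor and doxycycline, 3 of the 7 genes without doxycycline, 0 of the LSD1-CoREST list with it, and 908 and 903 genes with doxycycline (DMSO and inhibitor; 1444 and 1422 without a block).

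Leaving out 1 library at a time, counts ranged from 515 (without control siRNA replicate 3) to 826 with RB1 siRNA, from 41 (without DMSO replicate 1) to 1735 (without GSK2879552 replicate 2) with the inhibitor, and from 78 to 947 with the inhibitor and doxycycline. They ranged from 279 to 3200 and from 316 to 3201 for doxycycline, highest without GSK2879552 replicate 1, and from 19 to 1002 and 207 to 1965 at 3 and 30 days, highest without the vehicle library at 0 days. Of the 7 genes 1 to 7, 2 to 5, and at 30 days 0 to 2 were called. Lists with the inhibitor ranged from 0 to 7 and 0 to 5 (BTB zinc fingers), 0 to 1 in both (zinc fingers near ZNF460), 0 to 2 in both (LSD1-CoREST and BTBD), 0 to 3 and 2 to 6 (bZIP), and 0 to 2 (actin-related). Log2 values that changed sign were MYNN (-0.0033 to 0.16), ZNF460 (-0.019 to 0.41) and CCDC85B (-0.11 to 0.015) with RB1 siRNA; RP11-362K14.5 (-0.27 to 1.95 at 3 days, -0.045 to 2.17 at 30 days) and BTBD19 (-0.79 to 0.47 at 3 days); and, with the inhibitor, TNK2 (-0.26 to 0.035), C11orf68 (-0.41 to 0.042), DRAP1 (-0.18 to 0.0043), TCTEX1D4 (-0.51 to 0.62), BEST4 with doxycycline (-0.066 to 0.57) and KDM1A (-0.014 to 0.058, and -0.069 to 0.0083 with doxycycline). In the GSK2879552 experiment, ZNF460 with the inhibitor and doxycycline (-0.27 to 0.15) also changed sign. So did CCDC85B with the inhibitor without doxycycline (-0.26 to 0.39), and with doxycycline in the inhibitor libraries (-0.33 to 0.32). The cause of these shifts was not tested. Few counts limit BTBD19 and RP11-362K14.5 outside the GSK2879552 experiment, in the DHT libraries at total counts within the range of that experiment, and depth limits the VCaP values.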
